A study of Mus musculus with 2 samples.

Results

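The V (Trav) and J (Traj) segments of the T cell receptor alpha locus were described in activated regulatory T cells, the Foxp3-expressing T cells that restrain immune responses. Members were all genes of GENCODE release M21 whose symbol starts with Trav or Traj. They number 188 of 55536 genes, of which 128 are Trav and 60 are Traj, and all lie on the plus strand of chromosome 14 of mm10. The annotation marks 20 Trav and 9 Traj segments as pseudogenes, and the other 108 and 51 are called functional below. Polyadenylated RNA came from primary cells of a male adult mouse aged 4 months of the strain Foxp3CreERT2 x Rosa26YFP, whose names stand for a tamoxifen-inducible Cre driven from Foxp3 and for a yellow fluorescent protein gene in the Rosa26 locus. As origin the labels give a hematopoietic cell of the bone marrow, and they name no tissue of isolation, stimulus or tamoxifen treatment. Both libraries are technical replicates, 1 and 2, of biological replicate 1. There is therefore 1 group and no second condition, and every SD below is over 2 technical libraries of 1 biological sample and says nothing of the spread between animals.

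A developing thymocyte builds its alpha chain gene by joining 1 V segment to 1 J segment, cutting out the DNA between them. The joined exon is then spliced to the constant region Trac. Successive joins on the same chromosome take V segments farther upstream and J segments farther downstream, so that early joins favour segments near the gap between the arrays and later joins the outer ones. In mouse the central V array was duplicated in evolution, and symbols with a d or an n after the subgroup number mark the extra copies. The RNA of a population of T cells therefore samples the V and J segments of many clones, weighted by how many cells carry each and by how much RNA each cell makes. In bulk RNA these weights, fewer cells of a type and less RNA per cell, cannot be told apart.

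The sequences of the segments show what the reads had to tell apart. The ends of the highest segment of each of the 5 V subgroups with most reads are given with that of Trav3-3, the third highest segment overall. They are the last 60 bases of each GENCODE transcript on GRCm38, and capitals mark CTGTG within the last 20 bases, which spans the codon of the conserved cysteine where the third hypervariable loop begins.
Trav7-4: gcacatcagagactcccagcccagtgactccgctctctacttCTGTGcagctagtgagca
Trav14-2: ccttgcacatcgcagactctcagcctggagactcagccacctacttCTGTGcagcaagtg
Trav6-7-dv9: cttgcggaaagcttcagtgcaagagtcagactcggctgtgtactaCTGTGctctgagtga
Trav12n-3: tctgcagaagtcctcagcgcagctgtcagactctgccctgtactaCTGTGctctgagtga
Trav9-1: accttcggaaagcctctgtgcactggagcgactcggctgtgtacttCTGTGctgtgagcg
Trav3-3: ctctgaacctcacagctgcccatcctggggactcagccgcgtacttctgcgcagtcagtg
The letters CTGTG stand in the last 20 bases of 94 of 108 functional Trav segments and of 13 of 20 pseudogenes, against 3.11% of 141502 other transcripts on the same strand and 5.28% on either strand. Trav3-3 lacks those letters in this window and was among the segments with most reads. It has tgc there, which also codes for cysteine, so lacking the letters is not the same as lacking the cysteine. The median over functional segments was 44.4 reads with the letters and 43.0 reads without.

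The J segments shown next are the 5 with the most reads, Traj15, which tied with Traj49 and Traj9 for the next place at 25 summed reads, and 4 functional ones without the motif. Capitals mark the first match to TTNGGNNNNGGN, which spans the codons of the phenylalanine and glycines conserved in most J regions. Each is the whole segment, 5′ to 3′, as annotated on GRCm38.
Traj18: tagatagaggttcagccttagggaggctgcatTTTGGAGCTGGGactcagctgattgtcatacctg
Traj27: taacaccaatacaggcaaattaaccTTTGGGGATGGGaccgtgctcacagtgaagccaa
Traj17: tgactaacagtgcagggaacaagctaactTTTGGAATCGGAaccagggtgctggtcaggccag
Traj23: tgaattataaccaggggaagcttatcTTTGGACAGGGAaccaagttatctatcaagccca
Traj22: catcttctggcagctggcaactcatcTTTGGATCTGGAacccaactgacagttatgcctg
Traj15: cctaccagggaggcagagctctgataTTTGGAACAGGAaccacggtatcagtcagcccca
Traj33: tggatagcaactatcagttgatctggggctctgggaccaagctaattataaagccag
Traj19: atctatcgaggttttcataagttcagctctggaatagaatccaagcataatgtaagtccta
Traj29: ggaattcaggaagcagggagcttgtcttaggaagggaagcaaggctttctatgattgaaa
Traj41: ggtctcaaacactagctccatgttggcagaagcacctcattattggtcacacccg
The motif stands in 44 of 51 functional Traj segments and in 2 of 9 pseudogenes (Traj55 and Traj54), against 1.41% of the first 60 bases of 141307 other transcripts on the same strand and 2.54% on either strand. No match to it was found in Traj59, Traj41, Traj33, Traj29, Traj20, Traj19 and Traj3. The 44 functional segments that hold it had a median of 7.0 reads and the 7 that do not had a median of 2.0. These 7 summed to 30 reads in library 1 and 24 in library 2. Traj19 and Traj33, both without the motif, had 11 and 9 reads and 8 and 5 reads in the respective libraries. Traj33 holds tggggctctggg, which has a tryptophan codon in place of that of phenylalanine and keeps both glycine codons. Lacking the motif is therefore not the same as lacking the conserved glycines, and the group without it is mixed in this respect.

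Several V copies cannot be told apart by reads of 50 bases. Trav11 and its copy Trav11d did not differ over 342 bases, whereas Trav11n, annotated as a pseudogene, differed from Trav11 at 8 positions (C10T, C33T, T105C, C138G, C201A, G217C, T240C and A266G, counted from 1 at the 5′ end of Trav11, with the Trav11 base first). Positions 191 to 280 of the 3 copies are given with the bases that differ in capitals.
Trav11: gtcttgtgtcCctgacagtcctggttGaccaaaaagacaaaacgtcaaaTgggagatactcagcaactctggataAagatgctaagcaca
Trav11d: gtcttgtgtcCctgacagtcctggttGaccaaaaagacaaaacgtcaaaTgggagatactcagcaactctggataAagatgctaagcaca
Trav11n: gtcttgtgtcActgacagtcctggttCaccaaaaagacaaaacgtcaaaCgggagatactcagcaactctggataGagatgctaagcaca

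The labelled cell type was checked on its defining genes. Foxp3 stood at 22.4 ± 2.06 TPM (a transcript level scaled by length and by library), Il2ra at 239 ± 4.31, Ctla4 at 232 ± 23.9, Ikzf2 at 468 ± 3.02 and Cd4 at 212 ± 43.8 (SD, n = 2 technical libraries). Library 1 held 15076048 gene reads and library 2 held 14635787. Among markers of other cells, Cd8a stood at 1.11 ± 0.45 TPM and Cd8b1 at 12.4 ± 3.44. Their part in the segment reads was not tested.

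Expected counts were spread over many segments of the V array. An expected count, the model's estimate of reads on a gene, of 10 or more was reached in both libraries by 93 of 128 Trav segments, 91 of them functional and 2 pseudogenes. The 93 include identical copies that were given equal reads, such as Trav14d-1 and Trav14n-1, so it is not a number of segments shown to be used. In a second deposited count, of whole numbers and with fewer Trav genes and reads, 47 reached 10. Reads on all Trav segments summed to 7429.08 in library 1 and 6936.54 in library 2, or 0.0493% and 0.0474% of gene reads. Their summed level was 1799 ± 24.0 TPM (SD, n = 2), which is 65.6% ± 1.41 of that of Trac, the constant region shared by all alpha chains, at 2745 ± 22.5 TPM. Pseudogenes took 48.64 and 49.96 of the Trav reads. A read that crosses the join between V and J lies wholly inside no single segment, so the levels of V, J and C in such a table cannot be assumed equal.

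Copies of a V subgroup, the segments that share the number after Trav, were summed because reads often fit several of them. Of the 128 Trav segments, 10 had every 50-base window in no other gene and 40 had no window of their own. The 40 took 26.3% ± 0.56 of Trav reads. There were 17 pairs of segments with identical transcripts, and in each of the 17 the reads were divided equally within 0.02 reads. Sums over a subgroup came out as whole reads, within 0.05 reads, in both libraries for 21 of 23 subgroups, all except Trav7 and Trav13, and the 8 segments that share a window outside their own subgroup belong to those same Trav7 and Trav13 subgroups. A subgroup sum is thus nearly free of the division of reads among copies.

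Trav7 had the highest summed level of the 23 subgroups, at 339.09 TPM in library 1 and 313.02 in library 2, or 18.1% ± 0.78 of the Trav total. Trav14 followed at 235.85 and 248.30 TPM. Trav6 stood at 216.19 and 211.68 TPM, which lay below Trav14 in both libraries. Trav12 was next at 176.04 and 184.98 TPM. The libraries did not overlap between any neighbours among these 4.

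Trav4 at 143 ± 0.63 TPM and Trav3 at 140 ± 0.08 TPM lay close together, as did Trav13 at 116 ± 2.26 and Trav9 at 113 ± 4.13. Trav5 had 81.2 ± 7.50 TPM. Trav8 with 52.17 and 49.87 TPM and Trav16 with 49.03 and 52.09 TPM changed places between libraries, and their order is therefore not resolved. Trav10 stood at 36.0 ± 2.91 TPM. Trav17 with 25.68 and 27.80 TPM and Trav15 with 27.97 and 22.79 TPM also changed places, and Trav21 had 19.2 ± 5.06 TPM. The low end held Trav19 at 10.7 ± 1.78, Trav1 at 9.95 ± 1.68, Trav11 at 7.83 ± 2.13 and Trav2 at 4.17 ± 0.83 TPM.

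The lowest 4 subgroups are single segments with few reads or none. Trav20, a pseudogene, had 7 and 3 reads, Trav23 had 0 and 3, and Trav18 had 1 and 0. Trav22, also a pseudogene, was at 0 in both libraries, where 3 reads would have given 0.81 TPM in library 1 and 0.86 in library 2. Such limits cover counting error only.

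**Figure D1:**
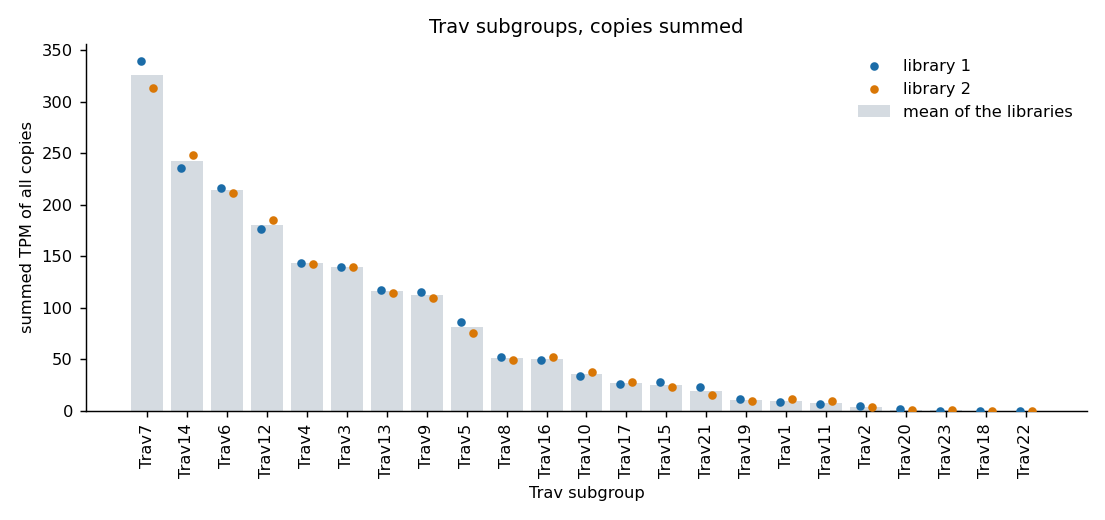
Summed TPM of all copies of each Trav subgroup, with points for libraries 1 and 2 and a bar for their mean. Trav7 (326 TPM on average) and Trav14 (242 TPM) lead, and the order of the libraries' points shows which neighbours overlap.

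The number of copies differs between subgroups and moves with the sum. The 5 subgroups with most reads, Trav7, Trav14, Trav6, Trav12 and Trav9, hold 58 of the 128 segments and took 62.2% ± 0.08 of Trav reads. The 10 highest hold 99 segments and took 89.5% ± 0.27. Per segment the order was different. Trav14 averaged 26.9 TPM over 9 segments, Trav7 averaged 25.1 over 13, and Trav17, a single segment with every window its own, reached 26.7 TPM alone. Trav15 with 9 segments averaged 2.82 TPM and Trav11 with 3 averaged 2.61.

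Single V segments with most reads came from several subgroups. Trav7-4 (chr14:53461099-53461738) had 409.57 reads in library 1 and 357.59 in library 2, and Trav7d-2 (chr14:52683964-52684472) had 326.82 and 269.77. Trav3-3 had 209.93 and 193.45 reads, and Trav12n-3 had 219.19 and 181.80. Trav4-4-dv10 followed with 204.37 and 169.27. These values rest on the model's division of reads to different degrees, since 60% of windows of Trav3-3 occur in no other gene but only 0.35% of those of Trav7d-2 and 0.33% of those of Trav12n-3.

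The next 5 segments lay closer together. Trav9-1 had 184.23 and 153.09 reads, Trav14-2 had 191.23 and 131.74, and Trav12-2, with 70.8% of windows its own, had 167.10 and 150.11. Trav7d-4 had 148.07 and 166.49 reads and Trav14n-3 had 153.01 and 142.43. Their ranges over the libraries overlap for all pairs except Trav9-1 and Trav14n-3, whose nearest values were 153.09 and 153.01 reads. The order of these segments is therefore not resolved. The median over all functional Trav segments was 44.4 reads.

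There were 15 Trav segments at 0 in both libraries, 11 of them pseudogenes. The 4 functional ones were Trav12d-3, Trav9d-4, Trav7-2 and Trav11. Trav12d-3 did not differ from Trav12n-3 over 347 bases and Trav7-2 did not differ from Trav7d-2 over 336 bases, and in each pair the second segment, which is annotated with a few more bases, took the reads. The deposited posterior SD, the model's own uncertainty of a count, was 44.1 and 31.7 reads for Trav12d-3 and 56.6 and 48.5 for Trav7-2. A value of 0 for these segments is therefore no sign that they were not transcribed, and the levels of Trav12n-3 and Trav7d-2 are those of the pairs. For Trav9d-4 the posterior SD was 12.7 and 7.54 reads.

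Pseudogenes with 10 or more reads in both libraries were Trav9n-1, with 18.99 and 18.79 reads, and Trav8-2, with 14.94 and 11.87. Of their windows, 48.6% and 64.6% occur in no other gene. Both rank below the median functional segment.

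Position in the V array was described by cutting the 128 segments, in order of start, into 3 sections of nearly equal numbers. The distal section, farthest from the J segments, ran from Trav1 to Trav8d-2 and took 28.1% ± 0.06 of Trav reads with 43 segments. The central section, from Trav16d-dv11 to Trav6-4, took 28.8% ± 1.06 with 43. The proximal section, from Trav7-4 to Trav23, took 43.1% ± 1.12 with 42, more than either other section in both libraries. Median reads per functional segment were 33.1, 40.7 and 82.9 from distal to proximal. The shares of the distal and central sections depend on how reads were divided among copies, which the SDs do not cover. Trav7d-2, in the distal section, took all 326.82 and 269.77 reads that it shares with Trav7-2 in the central section. Identical pairs such as Trav14d-1 and Trav14n-1 also lie in different sections.

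The proximal section also had the largest share where copies matter least, but the size of its lead differed. Among the 53 segments with at least 50% of their windows in no other gene, the proximal section took 65.0% ± 2.10 of reads, the central section 21% ± 1.51 and the distal section 14% ± 0.58. These 53 are themselves unevenly placed, with 29 in the proximal section, 11 in the central and 13 in the distal. Their summed shares therefore follow in part from which segments were kept.  The 55 segments with neither d nor n in the symbol held 48.6% ± 0.46 of reads, the 39 d copies 27.2% ± 0.27 and the 34 n copies 24.1% ± 0.19. These shares rest on how the model divided reads among copies, which their SDs do not cover. All reads of Trav7d-2 and Trav7-2 were put on the d copy, and all those of Trav12n-3 and Trav12d-3 on the n copy. The strain background at this locus was not given in the sources used here. As background, the number of V copies differs between mouse strains.

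The ends of the V array are segments without copies. Trav1, the most distal segment, starts 1793 kb before Trac and had 35 and 42 reads. Trav23, the most proximal, starts 243 kb before Trac and had 0 and 3 reads. Every window of both occurs in no other gene, so these values do not depend on how copies were divided.

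**Figure D2:**
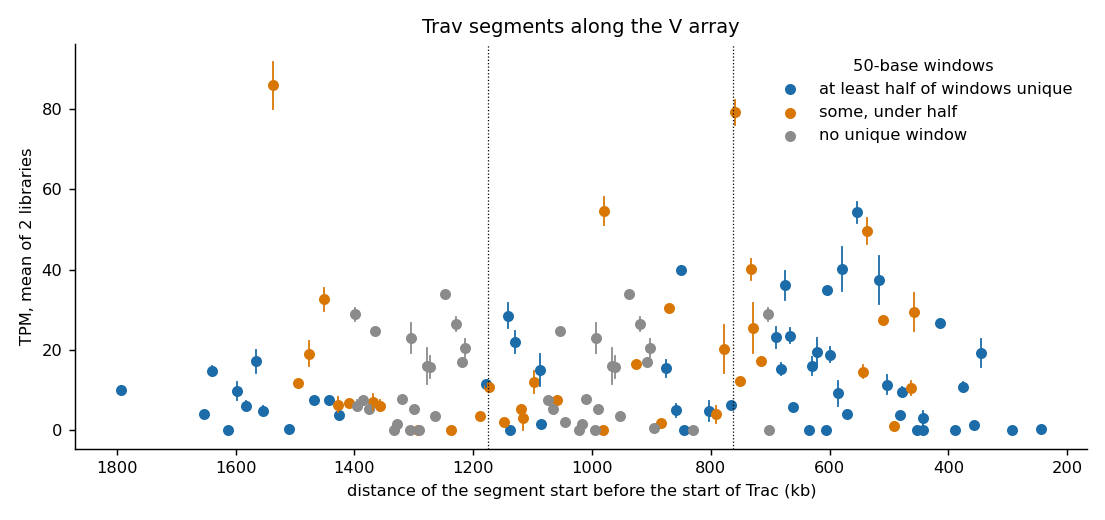
Mean TPM of each Trav segment against the distance of its start before Trac in kb, with a vertical line from library 1 to library 2, dotted lines between the sections, and colour for the share of 50-base windows in no other gene. Segments without a unique window lie mostly in the distal and central sections, and the proximal section holds 29 of the 53 segments with at least 50% of their windows unique.

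Segments with dv in the symbol can also join to delta segments. There are 10, and all 10 had 10 or more reads in both libraries, with means from 15.1 reads for Trav15d-2-dv6d-2 to 187 for Trav4-4-dv10. Together they took 9.33% ± 0.13 of Trav reads. Trav21-dv12, with every window its own, had 88 and 57 reads, and Trav14d-3-dv8 had 128.50 and 150.37. Delta V segments of the same locus had far fewer reads. Trdv1 had 50 and 26 reads, Trdv2-2 had 34.03 and 23.15, and all 6 delta V genes summed to 91.03 and 57.45. Trdd and Trdj genes were at 0, but whether they are long enough to hold a read of 50 bases was not examined. Their 0 is therefore not read as a low level. Trdc, the delta constant region, had 74 and 68.55 reads, or 1.55 ± 0.02 TPM against 2745 for Trac.

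The J segments are short and had few reads. Only positions that keep a read of 50 bases inside the segment count, and functional Traj segments offered 6 to 17 such positions with a median of 12, against a median of 318 for functional Trav segments. Traj reads summed to 412 in library 1 and 357 in library 2. On the TPM scale, which divides by those positions, they summed to 2730 ± 135, or 99.5% ± 5.73 of the level of Trac. All 56 Traj segments that can hold a read had every window in no other gene, and all their counts were whole within 0.005 reads. Over the 51 functional segments the reads had a Spearman correlation of -0.01 with the number of positions, and TPM one of -0.29, given as a description of segments that share both libraries.

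Nearly every functional J segment had reads. In both libraries 47 of 51 had at least 1 read and 7 had 10 or more, and none was at 0 in both. The median was 6.5 reads. Over these 51 the reads of the libraries had a Spearman correlation of 0.64, again as a description.

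Traj18 had the most reads of any J segment, 40 in library 1 and 28 in library 2, or 8.84% of summed Traj reads (exact Clopper-Pearson 95% interval 6.93% to 11.1%, counting error only). It lies at chr14:54200777-54200842, 19.7 kb before Trac. Traj27 had 18 and 20 reads, or 4.94% (3.52% to 6.72%). Both libraries put Traj18 above every other segment, and the pooled intervals of the first and second segment do not overlap. Per length they lie together, since Traj18 with 17 positions had 189.72 and 140.73 TPM and Traj27 with 10 positions had 145.14 and 170.88 TPM.

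Traj17 had 19 and 18 reads, Traj23 had 17 and 13, and Traj22 had 11 and 19. With Traj18 and Traj27 they took 26.5% ± 1.39 of Traj reads. Traj49 had 18 and 7 reads, Traj15 had 13 and 12, and Traj9 had 10 and 15. Traj42 with 8 and 13 reads and Traj19 with 11 and 9 completed the 10 highest, which took 41.6% ± 2.18. From Traj27 down to Traj19 each pooled interval overlaps that of the next segment, so the order among them is not resolved at this depth.

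At the low end, Traj29 had 1 and 0 reads, Traj41 had 0 and 1, Traj46 had 0 and 2 and Traj59 had 0 and 3. Traj25 had 1 and 2 reads, and Traj47 and Traj3 had 2 and 2 each. Of the 9 Traj pseudogenes, Traj60 had 0 and 1 reads, Traj36 had 1 and 0, and 7 were at 0. Of these 7, Traj51, Traj14, Traj8 and Traj1, the segment nearest to Trac, are too short to hold a read. The 3 that could have received reads were Traj61, the first J segment, Traj55 and Traj54. The limit of 3 reads corresponds to 10.5 and 11.1 TPM for Traj61, 17.3 and 18.3 for Traj55 and 48.4 and 51.3 for Traj54, so only a high level would have been seen for Traj54.

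By position, the 5-prime section of the J array, from Traj61 to Traj42 and nearest the V segments, took 21.3% ± 1.16 of Traj reads. The central section, from Traj41 to Traj22, took 37.8% ± 1.99, and the 3-prime section, from Traj21 to Traj1, took 40.9% ± 0.83. Pooled over libraries the exact 95% intervals were 18.5% to 24.4%, 34.3% to 41.2% and 37.5% to 44.5%. These intervals cover counting error only. By them the 5-prime section lay below both others, while the central and 3-prime sections were not distinguishable at this depth. Whether the reads came from joined segments was not tested, so the shares are not a direct measure of J use. The sections hold 15, 19 and 17 functional segments with medians of 5.5, 7.5 and 6.5 reads. Traj18 alone gave 40 of the 171 reads of the 3-prime section in library 1 and 28 of the 144 in library 2.

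**Figure D3:**
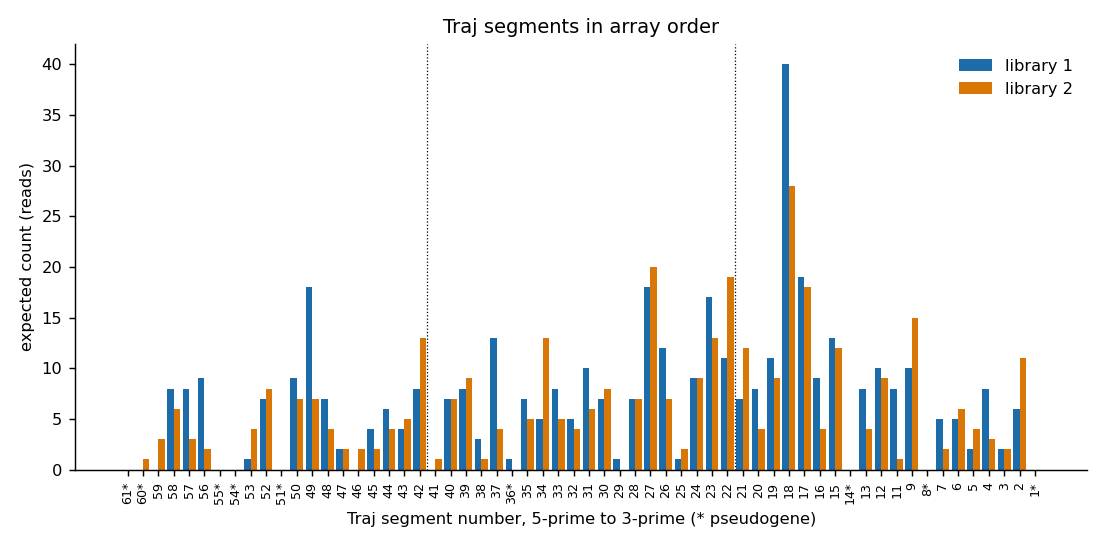
Expected count of each Traj segment in library 1 and library 2, in array order from 5-prime to 3-prime, with dotted lines between the sections and an asterisk on pseudogenes. Traj18 is highest in both libraries, at 40 and 28 reads, and most functional segments lie between 1 and 13 reads.

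Segments of 2 invariant receptors were looked up. Trav11 joined to Traj18 forms the alpha chain of invariant natural killer T cells, and Trav1 joined to Traj33 that of mucosal-associated invariant T cells. The Trav11 subgroup had 23 and 32 reads, or 0.383% of summed Trav reads (exact 95% interval 0.289% to 0.498%), of which Trav11d was given 17.53 and 25.86, Trav11n 5.47 and 6.14, and Trav11 none. Trav11 and Trav11d do not differ over 342 bases, so the 17.53 and 25.86 reads are to be read as those of both, and the subgroup share includes the pseudogene Trav11n. Trav1 took 0.536% (0.423% to 0.669%), and Traj33, with 13 reads over both libraries, took 1.69% of Traj reads (0.90% to 2.87%). By reads the J segment of the first receptor was the highest of its array, and per length it was not above Traj27 in library 2. The V subgroup ranked 18 of 23. Which V segments were joined to Traj18 was not tested, since the tables hold no joined reads. Among markers of invariant natural killer T cells, Zbtb16 had 0 and 1 reads, Klrb1c had 23 and 36, and Tbx21 had 102 and 106.

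**Figure D4:**
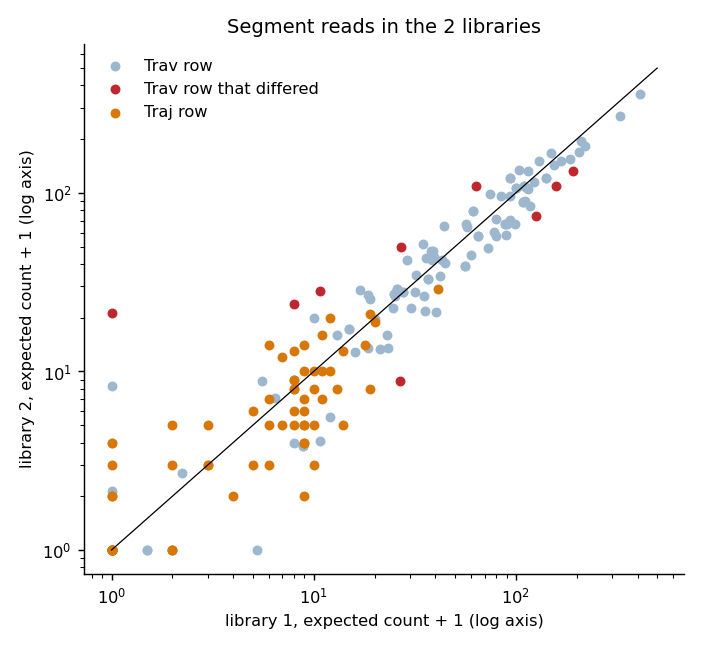
Expected count plus 1 of each Trav and Traj segment in library 1 against library 2, on log axes with the line of equality. The 9 Trav segments past the threshold of the library test are in red, and Traj segments lie at low counts around the line.

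Differences between the technical libraries were examined with a two-sided exact binomial test over all genes with at least 10 summed reads. Adjusted p (Benjamini-Hochberg over all 17271 genes tested) was under 0.05 for 24.3% of all genes. It was so for 9 of 105 Trav segments tested, or 8.57%, with 5 higher and 4 lower in library 2, and 17 reached an unadjusted p under 0.05. None of 36 Traj segments tested passed, and none reached an unadjusted p under 0.05. Power differs with reads, since the median summed count was 305 for all genes tested, 93 for Trav and 16.5 for Traj. With 10 to fewer than 100 summed reads 13.2% of genes passed and 5 of 89 segments did, and with 100 to fewer than 1000 reads 22.7% of genes and 4 of 52 segments did.

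The 9 segments share windows with other genes, as do all but 10 of the 128 Trav segments. Trav6n-5 had 0 reads in library 1 and 20.13 in library 2, with posterior SDs of 12.45 and 10.86. In the same subgroup Trav6-5 went the other way, with 125.14 and 73.65 reads and posterior SDs of 12.43 and 11.18. Also lower in library 2, Trav6-3 had 25.74 and 7.79 reads, Trav14-2 had 191.23 and 131.74, and Trav5-4 had 157.86 and 107.90. Higher in library 2 were Trav7-3 with 62.42 and 108.36, Trav13-2 with 25.96 and 48.77, Trav4-2 with 9.76 and 27.31, and Trav3-4 with 7.01 and 22.72. Posterior SDs were small for Trav4-2, at 0.58 and 1.22, and for Trav13-2, at 2.66 and 3.13. They were 7.81 and 7.94 for Trav14-2, 13.18 and 10.46 for Trav6-3 and 13.71 and 12.25 for Trav7-3. How far the division of reads among copies accounts for the 9 was not tested. Adjusted p by the binomial test with Benjamini-Hochberg adjustment ran from 2.5e-05 for Trav6n-5 to 0.033 for Trav13-2. With edgeR's exact test at a dispersion of 0.01 only Trav6n-5 kept an adjusted p under 0.05 among the 9, and with a minimum of 1 summed read Trav13-2 lost it.

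The copies of each subgroup were then summed before the test. Of 20 subgroups tested none passed, 2 reached an unadjusted p under 0.05 (Trav7 and Trav21), and 24.4% of the 17186 genes in that table passed. Over the 23 subgroups the reads of the libraries had a Pearson correlation of 0.997, as a description. Summing was chosen after the single segments had been seen.

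The other genes of the pathway were read from lists. Of 15 recombination genes, 11 stood at 1 TPM or more. The genes that cut the receptor loci, Rag1 and Rag2, had 2 and 0 reads and 0 and 0 reads, Dntt, which adds bases at the joins, had 2 and 4, and Ptcra, the partner of the beta chain before an alpha chain exists, had 2.02 and 1. Genes of general DNA end joining were present, with Xrcc6 at 43.5 ± 0.52, Xrcc5 at 21.6 ± 0.35 and Prkdc at 6.13 ± 0.19 TPM. By the same test, which 24.3% of all genes passed, 2 of the 15 were higher and 2 lower in library 2, and Rag1, Rag2, Dntt and Ptcra had too few reads to be tested. The 7 constant regions were all above 1 TPM, led by Trbc2 at 3387 ± 40.5, Trac at 2745 ± 22.5 and Trbc1 at 1834 ± 33.5 TPM, and 1 of them, Tcrg-C4, was higher in library 2, against the same 24.3% of all genes. The 4 signalling chains that carry the receptor to the surface stood at 1100 ± 26.8 (Cd3g), 785 ± 45.5 (Cd3d), 648 ± 70.8 (Cd3e) and 291 ± 15.6 TPM (Cd247), with 2 higher and 1 lower in library 2 beside 24.3% of all genes. Their reads ran from 5310.56 for Cd247 to 12300 for Cd3g in library 1, where a test of counting error detects small differences.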

How the data were processed

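RNA with poly(A) tails was sequenced in 2 technical libraries of 1 sample, with fragments of 100 to 300 bases per the labels. The authors deposited, per the file headers, a gene table on GENCODE M21 (mm10) with an expected count (estimated reads, not always whole), a TPM level and a posterior SD of the count. A deposited whole-number count table uses GENCODE M4, and it holds 99 Trav and 0 Traj genes. The quantifier, counter, aligner, strandedness and strain haplotype were not given in the sources used here. Effective length is 49 below length, as for reads of 50 bases.

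Members and lists were chosen with earlier results of these data known. Named were all Trav subgroups, the 10 highest Trav and Traj genes, the first and last, pseudogenes with 10 reads in each library, Traj genes at 0, segments of invariant receptors, dv genes, all members past the threshold and the pathway lists. Sequences are those of GENCODE M21 transcripts, and a window of 50 bases is unique if it lies in no transcript of another gene. The copies summed are those of the reference genome, and the number present in this mouse was not given in the sources used here.

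Expected counts were rounded, and genes with 10 or more summed reads entered a two-sided exact binomial test against library 2's 49.3% share of gene reads, with Benjamini-Hochberg adjustment at 0.05. The test compares these libraries by counting error and not animals. It was tested on simulated data with counting error alone, without division of reads among copies or further spread between libraries. Intervals are exact Clopper-Pearson at 95%. Alternatives were other scalings (TMM from edgeR 4.0.16, DESeq2 1.42.0 size factors), edgeR's exact test at a dispersion of 0.01, other read minimums, TPM, functional segments only, sections by span, leaving out each library and the whole-number table. Added after seeing the data were sums by subgroup before the test, and V sections over segments with mostly unique windows and over the whole-number table. Python 3.11.15, numpy 2.4.6, pandas 2.3.3, scipy 1.17.1, matplotlib 3.10.9 and R 4.3.3 were used.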

Additional observations from a re-analysis of the deposited data

How the results depend on the processing

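No paired analysis was possible because there is 1 group. The 9 differences between libraries were 9 with TMM, 9 with DESeq2 size factors and 8 with a minimum of 1 summed read, but 1 with edgeR's exact test at a dispersion of 0.01 (Trav6n-5) and 0 with copies summed by subgroup. No direction turned with the other scalings, the lower read minimum or edgeR's exact test. The 9 segments were not tested in the whole-number table. There Trav6n-5 had 3 and 0 counts and Trav6-3 had 7 and 9 in libraries 1 and 2, opposite to their expected counts. The rest of the 9 kept their direction there, Trav6-5 barely so, with 8 and 7. The 93 Trav segments with 10 reads became 102 at 3 reads, 105 at 1 read and 47 in the whole-number table. That table holds fewer Trav genes and fewer reads. The 7 Traj segments became 37 at 3 reads and 47 at 1 read, and the whole-number table holds no Traj gene. The distal V section (28.1%) was 28.9% by TPM, 28.3% over functional segments, 21.1% by span, 14% over mostly unique segments and 15.3% in the whole-number table. The central section (28.8%) was 35.8% by span, 21% over mostly unique segments and 19.1% in the whole-number table, and the proximal section (43.1%) was 65.0% and 65.6% in the last 2. The whole-number table had 0 in both libraries for copies such as Trav12n-3 and Trav3n-3, with 219.19 and 139.99 expected reads in library 1. How far such copies move its V section shares was not tested, so these shares are no independent check. Span sections held 34, 52 and 42 segments. By TPM the 5-prime J section was 19.2% and the central one 40.3%, the 5 highest Traj took 24.5% (Traj9 in place of Traj17), and the 5 highest Trav subgroups 61.5% (Trav4 in place of Trav9), or 62.4% over functional segments. By reads in place of TPM, Trav was 28.5% and Traj 1.52% of Trac, since segments are shorter than Trac. Leaving out a library gave 42.3% to 43.9% for the proximal V section, 20.4% to 22.1% for the 5-prime J section, 62.2% to 62.3% for the 5 highest subgroups, 25.5% to 27.5% for the 5 highest Traj, and 64.6% to 66.6% (Trav) and 95.4% to 103.5% (Traj) of Trac. The depth of 412 and 357 Traj reads does not resolve the order of most J segments.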

Other observations

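The whole-number table and the expected counts were close for V segments without copies and far apart for the constant region. The 7 Trav segments with every window in no other gene that both tables hold summed to 315 and 299 in the whole-number table and to 326 and 294 expected reads. For Trac the whole-number table had 1124 and 1121, which is 4.46% ± 0.15 of its expected reads (SD, n = 2 technical libraries). All Trav genes of that table summed to 2100 and 2020, of a table total of 3474100 and 3471320.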
